A study of Mus musculus with 2 samples.

Results

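Ventricular cardiomyocytes rich in mitochondrial RNA were taken from 2 single-cell libraries of pressure-loaded mouse hearts. A barcode was a member when Ttn, Myh6, Ryr2 and Tnnt2 together held at least 2.5% of its nuclear-encoded unique molecular identifiers (UMIs, tags that mark single RNA molecules). The 13 protein-coding genes of the mitochondrial genome had to hold 10 to 50% of all its UMIs. The atrial genes Myl7, Sln, Bmp10 and Sbk2 had to be at 0 UMIs. The rule took 626 of 26178 barcodes. They were 529 of 16060 barcodes in the library labelled wild-type (3.29%, exact binomial 95% interval 3.02 to 3.58) and 97 of 10118 in the library labelled p53 knockout (0.959%, 0.778 to 1.17). These shares, the mitochondrial share, the 4 cardiomyocyte genes and the 4 atrial genes were used to choose the members and are given as a description.

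Both groups had transverse aortic constriction (TAC), a surgical narrowing of the aorta that makes the left ventricle pump against a raised pressure, and there was no group without it. Hypertrophied left ventricles were taken 6 weeks later, from wild-type mice in one group and from p53 knockout mice in the other, and 3 hearts of a group were mixed into 1 sample. The labels give no strain, age or sex, no knockout allele, and no word on whether the loss of p53 was limited to any cell type. Each group has 1 library, so the spread between animals is not measured, and the intervals below cover counting error only.

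Cardiomyocytes of the working ventricle contract with every beat and are packed with mitochondria. The mitochondrial genome encodes 13 subunits of the respiratory chain and ATP synthase, and all other subunits are made from nuclear genes and imported. Under sustained pressure load, ventricular cardiomyocytes are known for switching on natriuretic peptides and fetal isoforms of contractile proteins. p53, encoded by Trp53, is a transcription factor that acts in cell cycle arrest, cell death and metabolism.

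Members are compared below with the mitochondria-low ventricular cardiomyocytes, which meet the same rule with a mitochondrial share under 10% (4067 and 566 barcodes, in the order wild-type library, knockout-labelled library, which is kept throughout). Levels are UMIs per 1000000 nuclear-encoded UMIs (CPM), summed over barcodes. They compare 1 gene between groups of cells and not 1 gene with another. Differences are log2 ratios, in which 1 is a doubling, and a gene is counted where both sides together hold at least 20 UMIs.

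The labels could not be checked by Trp53 itself. Members held 7 and 4 Trp53 UMIs, or 13.2 CPM (5.30 to 27.1) and 23.9 CPM (6.51 to 61.1), and the log2 ratio of 0.93 (-1.36 to 2.83) covers both directions. In mitochondria-low cells Trp53 was at 29.4 and 22.9 CPM, a log2 ratio of -0.35 (-0.92 to 0.16), and in 1.69% and 0.358% of barcodes after each was thinned to 500 nuclear-encoded UMIs. In thinned barcodes with B-cell markers it was in 0.719% and 4.49%, the other way round. Sex-linked RNA was unequal. Xist, the RNA that silences an X chromosome, had 0 and 38 UMIs in members, and the Y-linked Ddx3y had 64 and 0. So was haemoglobin RNA, with Hbb-bs at 866 and 3486 CPM in members. Genotype, sex and the preparation of the library cannot be told apart in this design. In all, 105 barcode sequences occur in both libraries, and none of them is a member in both.

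Members held a median of 1067 and 1845 UMIs and of 523 and 726 detected genes. Their nuclear-encoded UMIs summed to 531431 and 167508, so values of the knockout-labelled library are the less precise. Markers of other cells were present in members, at levels that differed between cell types. The 8 fibroblast markers summed to 2553 and 1469 CPM in members, 1469 and 739 CPM in mitochondria-low cells and 4981 and 5977 CPM over all barcodes. The 8 endothelial markers summed to 1837 and 1707 CPM in members. Pericyte markers summed to 800 and 495 CPM in members, next to 874 and 491 CPM over all barcodes. One of them, Abcc9, is also on the list of ion channels and pumps used here for cardiomyocytes, so this sum may hold their own RNA. Erythroid markers were higher in members, at 2130 and 8173 CPM, than in mitochondria-low cells (365 and 1238 CPM) or over all barcodes (730 and 2600 CPM). T or NK cell markers had 0 and 4 UMIs, neutrophil markers 1 and 2, and adipocyte markers 1 and 2. The part of such RNA in the results was not tested, apart from the values given without the barcodes that carry most of it.

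Members made up 11.5% (10.6 to 12.4) of ventricular cardiomyocyte barcodes in the wild-type library and 14.6% (12 to 17.5) in the knockout-labelled one. Their median mitochondrial share was 21.3% and 20.8%, against 2.09% and 1.07% in mitochondria-low cells. In the wild-type library 241 members had 10 to 20% mitochondrial UMIs, 157 had 20 to 30% and 131 had 30 to 50%. The matching numbers in the other library were 47, 31 and 19. A further 7 and 2 ventricular barcodes lay above 50%. Among all barcodes with 10 to 50% mitochondrial UMIs, members were 33.4% and 10.4%, so most mitochondria-rich barcodes of both libraries fell outside the rule.

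Barcodes lay just inside and just outside the bounds of the rule, and the change between them differed by gene. Mb was at 3175 CPM (2780 to 3610) in the 72 wild-type-library barcodes with 8 to 10% mitochondrial UMIs and at 5029 CPM (4476 to 5632) in the 61 with 10 to 12%. The same 2 steps in the knockout-labelled library gave 4888 CPM over 15 barcodes and 9590 CPM over 9. Over these steps Nppa went from 0 CPM (0 to 50.3) to 235 CPM (128 to 394) in the wild-type library. In the other library it went from 3825 CPM (3076 to 4702) to 4359 CPM (3327 to 5611). Barcodes with 2 to 2.5% of UMIs from the 4 cardiomyocyte genes, just outside the rule, had Mb at 7440 and 11224 CPM over 129 and 42 barcodes. Those just inside it, at 2.5 to 3%, had 9978 and 13885 CPM over 116 and 22.

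The mitochondrial RNA itself had much the same make-up in both libraries. mt-Co1, a catalytic subunit of cytochrome c oxidase, gave 26.4% and 24.6% of members' mitochondrial UMIs, and mt-Co3 gave 24.1% and 21.4%. mt-Co2 followed with 10.1% and 9.65%, mt-Cytb of complex III with 8.20% and 9.47%, and mt-Atp6 of ATP synthase with 8.18% and 9.54%. mt-Nd6, the protein gene on the other strand of the mitochondrial genome, gave 0.0405% (0.0317 to 0.0511) and 0.0234% (0.0121 to 0.0409). Its share in mitochondria-low cells was 0.10% and 0.163%. mt-Nd3 was likewise a smaller part in members, 2.93% and 2.45%, than in mitochondria-low cells, 4.88% and 3.84%.

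The markers of the label were present. Mb, the oxygen store myoglobin, stood at 9461 CPM (9202 to 9726 by counting error) and 11880 CPM in members, against 823 and 705 CPM in mitochondria-low cells. Actc1, cardiac actin, was at 9053 and 11128 CPM against 985 and 886. The heart and muscle subunit Cox6a2 of cytochrome c oxidase was at 3588 and 2615 CPM against 322 and 134. Myl3, the ventricular essential light chain, was at 5850 and 6370 CPM against 673 and 700, and Ckm, muscle creatine kinase, at 1477 and 1373 CPM against 135 and 104. Ankrd1, a stretch-responsive protein of the sarcomere and nucleus, was at 920 and 6394 CPM against 224 and 1770. All 6 were higher in members of each library. They came with the label, which was drawn from these same data, so they are no separate check of it. Myl2, the ventricular regulatory light chain, was at 7055 and 7068 CPM against 1375 and 1080. Of the other ventricular markers, Irx4 and Hey2 had 10 and 3 UMIs in members of the wild-type library and 0 in those of the knockout-labelled one.

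Free RNA was gauged from barcodes with UMIs of at least 2 of 6 B-cell markers (139 and 427), a cell type that should lack these genes. One of the 6, Ebf1, is also made by fibroblasts and pericytes. Mb was at 874 and 579 CPM there, near its level in mitochondria-low cardiomyocytes and far under its level in members. After each barcode was thinned to 500 nuclear-encoded UMIs, Mb had a UMI in 93.0% and 96.9% of members. It had one in 33.2% and 26.9% of mitochondria-low cells and in 31.7% and 17.3% of B-cell barcodes. Unthinned, the share of members was 96.8% and 100%. Mb was thus detected in nearly all members, whereas in mitochondria-low cells of the wild-type library its share was at the level of the B-cell barcodes.

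**Figure D1:**
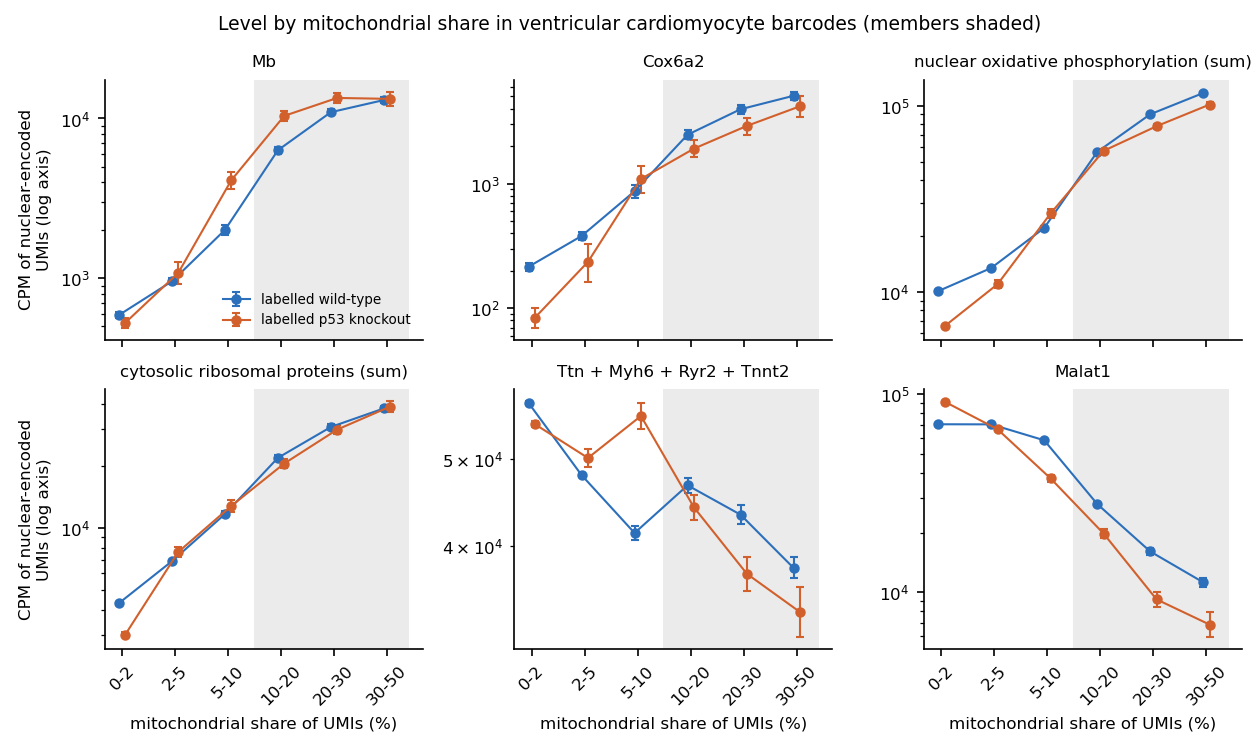
Level (CPM of nuclear-encoded UMIs, log axes) of 2 genes, 2 summed gene lists, the sum of the 4 genes of the rule and Malat1 in ventricular cardiomyocyte barcodes grouped by mitochondrial share of UMIs; shaded classes are members, and bars are exact Poisson 95% intervals. From the class of 0 to 2% to that of 30 to 50%, Mb goes from 588 to 13039 CPM and Malat1 from 70362 to 11217 CPM in the library labelled wild-type.

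The plot of level by mitochondrial share shows change within mitochondria-low cells and within members, as well as between them. Summed nuclear oxidative phosphorylation genes went from 10138 CPM in wild-type-library barcodes with 0 to 2% mitochondrial UMIs to 56648 CPM at 10 to 20% and 117337 CPM at 30 to 50%. The knockout-labelled library gave 6570, 57390 and 101714 CPM in the same classes. Mb in that library stood at 10382, 13444 and 13262 CPM over the 3 classes of members, so it was nearly level above 20%. The 4 genes of the rule held 57758 and 54689 CPM at 0 to 2% and 37769 and 33713 CPM at 30 to 50%. Some changes were large at the bound of 10%. In the wild-type library the oxidative phosphorylation sum was 22138 CPM at 5 to 10%, just under that bound. Malat1 there was at 70274 CPM at 2 to 5%, 58397 CPM at 5 to 10% and 27856 CPM at 10 to 20%.

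Members and mitochondria-low cells were next set side by side within each library, to describe which nuclear genes go with a high mitochondrial share. Since that share chose both groups, the ratios are a description. Of 13063 genes counted in the wild-type library, 15% were at least 2-fold higher in members and 18.8% at least 2-fold lower, 33.8% in all. Of 8644 in the other library these shares were 24.1% and 25.5%, 49.6% in all. The median over all genes was -0.17 and -0.08, and 43.6% and 48.0% of genes were above 0.

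Nuclear genes of oxidative phosphorylation were higher in members without exception. All 82 measured genes were above 0 in both libraries, 78 and 79 of them by 2-fold or more, with a median log2 ratio of 2.86 and 3.43. Complex I had a median of 2.88 and 3.54 over 37 genes, complex III 2.91 and 3.35 over 9, complex IV with cytochrome c 3.03 and 3.76 over 14, and ATP synthase 2.79 and 3.24 over 18. Complex II, which also belongs to the citric acid cycle, had the lowest median of the 5 groups, 1.64 and 1.89 over 4 genes. Cox4i1, a core regulatory subunit of complex IV, was at 4255 and 2883 CPM in members against 374 and 193. Ndufa4, a small subunit first assigned to complex I, was at 2911 and 2239 CPM against 267 and 128. Chchd10, a protein of the mitochondrial intermembrane space, was at 1428 and 1325 CPM against 111 and 64.9. In each of these the level in members was over 10 times that in mitochondria-low cells of both libraries.

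Most other energy genes were higher in members too, with lower list medians. All 16 citric acid cycle genes were higher, with medians of 1.54 and 2.11, and so were all 12 genes of phosphocreatine and ATP transfer, with medians of 1.60 and 2.41. Slc25a4, which exchanges ADP and ATP across the inner mitochondrial membrane, was at 6797 and 6310 CPM against 854 and 599. Glycolysis and glucose use had 21 of 26 genes higher in each library, with medians of 1.38 and 1.18, although some of its genes had ratios over the oxidative phosphorylation median. Gapdh was at 1966 and 2215 CPM against 173 and 119, and Pgam2, muscle phosphoglycerate mutase, at 653 and 633 against 59.8 and 30.9. Fatty acid genes were divided: 20 of 32 and 23 of 30 were higher, with medians of 0.64 and 1.43. Etfb, which passes electrons from fatty acid oxidation to the respiratory chain, had ratios of 3.13 and 3.98. Ppara, a nuclear receptor that drives this pathway, had -2.07 and -3.45.

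Cytosolic ribosomal proteins were higher in 77 of 78 genes of each library, with medians of 2.38 and 2.87. The exception was Rpl3l, a striated muscle form of Rpl3, at -0.25 and -0.32. Of the genes for oxygen handling and oxidative stress defence, a list that holds Mb, 20 of 24 and 19 of 23 were higher, with medians of 1.49 and 2.43. The peroxiredoxin Prdx5 had ratios of 3.06 and 4.28 and the mitochondrial superoxide dismutase Sod2 of 2.26 and 3.05. Nfe2l2, a transcription factor of the antioxidant response, had -0.84 and -0.98.

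**Figure D2:**
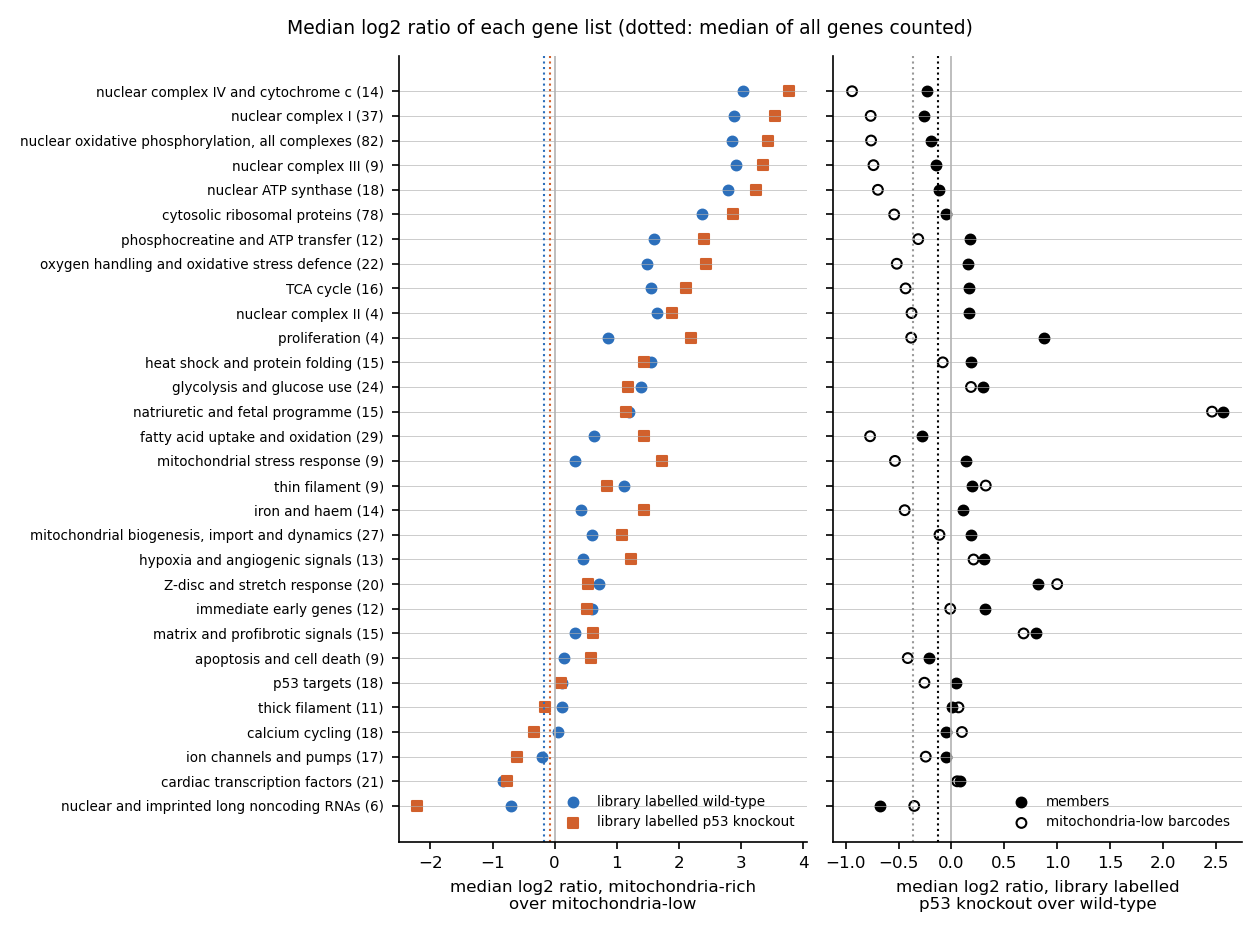
Median log2 ratio of each gene list; the number of genes counted between the libraries stands in brackets. Left, mitochondria-rich over mitochondria-low cells within each library; right, the knockout-labelled over the wild-type library in members (filled) and mitochondria-low cells (open). Dotted lines are medians of all genes. The oxidative phosphorylation lists sit far right on the left panel, at 2.86 and 3.43 for all complexes, and in members near the all-gene line on the right panel (-0.19 next to -0.13), but under it in mitochondria-low cells (-0.76 next to -0.37); the natriuretic and fetal list is alone at 2.57 in members there.

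Sarcomere genes did not move as a block. Thin filament genes had medians of 1.12 and 0.85, Z-disc genes 0.72 and 0.54, and thick filament genes 0.12 and -0.15. Within the thick filament, Myl3 had ratios of 3.12 and 3.18 and Myl2 of 2.36 and 2.71, whereas Myh7b, a slow myosin of low abundance, had -2.26 and -2.64. In the Z-disc, the chaperone Cryab had 3.04 and 3.76, and Fhl2, a LIM-domain adaptor, had -0.55 and -1.21. Calcium cycling genes were divided as well. S100a1, a calcium sensor that binds the calcium pump, had 2.89 and 4.13, and the pump Atp2a2 had 1.0 in both. The L-type channel Cacna1c had -1.95 and -2.42, the sodium-calcium exchanger Slc8a1 -1.36 and -2.53, and the release channel Ryr2, a gene of the rule, -1.55 and -1.85.

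Of the nuclear and imprinted long noncoding RNAs, 7 of 11 and 9 of 10 were lower in members, with medians of -0.70 and -2.21. Of all genes, 43.6% and 48.0% were higher. Malat1, a long noncoding RNA kept in the nucleus, was at 19980 and 14101 CPM in members against 69638 and 87280. Neat1, the scaffold of nuclear paraspeckles, was at 1052 and 1295 CPM against 3572 and 7426. Snhg14, an imprinted noncoding transcript, had ratios of -2.66 and -2.74. Mhrt, a long noncoding RNA antisense to Myh7, had -2.08 and -3.12, and strand use in the counting is not given in the sources used here. Pvt1 was the highest of the list, with 0.43 and 0.53. Of the cardiac transcription factors, 21 of 25 and 19 of 24 were lower, with medians of -0.83 and -0.77. Ppargc1a, a coactivator of mitochondrial biogenesis, was at 295 and 227 CPM against 841 and 1133, and its partner Esrrg at 282 and 149 against 882 and 1092. Nkx2-5 was higher, with ratios of 2.40 and 2.79, and so was Srf with 2.27 and 2.71.

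Ctnna3 and Erbb4 were among the 15 genes named as lowest in members. Ctnna3, the cardiac alpha-T-catenin, was at 521 and 448 CPM against 2545 and 3418, and the neuregulin receptor Erbb4 at 137 and 107 against 645 and 716. Of these 15, 12 in each library stood in mitochondria-low cells at over 2 times their level in B-cell barcodes, and 6 and 5 were at or under that level in members. Of the 15 that were highest, 15 and 14 stood in members at over 2 times the B-cell level, with median multiples of 10.1 and 11.8. The same 15 in mitochondria-low cells were at or under the B-cell level in 10 and 12 cases. Both sets were chosen by this ratio, with a filter on level on the higher side only. These counts are therefore partly fixed by the choice.

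The ratio followed the genomic span of the gene, which is long where introns are long. Over genes with a span and enough counts, the rank correlation of ratio and span was -0.37 over 8455 genes and -0.48 over 3168. Genes share the same barcodes, so these are descriptions. Genes of up to 5 kb had a median ratio of 1.22 and 2.61, those of 20 to 50 kb -0.30 and -0.35, and those over 200 kb -0.67 and -1.29. Oxidative phosphorylation genes are short, with a median span of 7.19 kb against 27.4 kb. Within the class of 5 to 20 kb these genes had medians of 2.82 and 3.43 over 43 and 42 genes, against 0.16 and 0.39 for the others. In the class of up to 5 kb they had 3.09 and 3.72 over 29 and 28 genes, against 1.12 and 2.37. The part of span in their ratios was not tested.

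**Figure D3:**
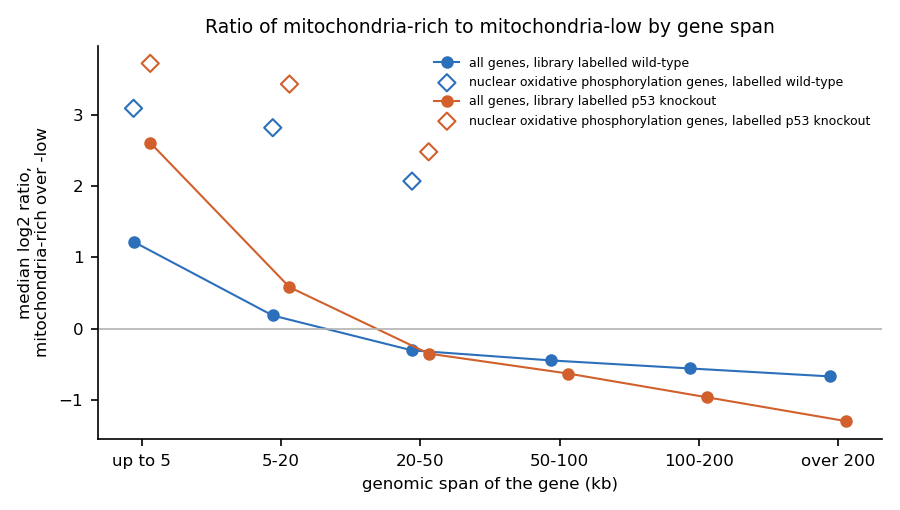
Median log2 ratio of mitochondria-rich over mitochondria-low ventricular cardiomyocytes by genomic span of the gene (kb), for all genes (circles) and nuclear oxidative phosphorylation genes (diamonds) in both libraries. The circles go down from 1.22 and 2.61 in the shortest class to -0.67 and -1.29 in the longest, and the diamonds lie above them in each class shown.

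Promoter sequences are given for the genes that carry the comparison of the 2 libraries and for Ndufa11, a complex I gene, as an example of the respiratory genes. Each is the 250 bases before the RefSeq start (GRCm38.p6), 5' to 3' on the gene's strand, and capitals mark the searched motifs on either strand. The windows are chr4:148000472-148000721 for Nppa, chr4:147985650-147985899 for Nppb, chr8:123894776-123895025 for Acta1, chr19:36119845-36120094 for Ankrd1 and chr17:56717512-56717761 for Ndufa11.
Nppa: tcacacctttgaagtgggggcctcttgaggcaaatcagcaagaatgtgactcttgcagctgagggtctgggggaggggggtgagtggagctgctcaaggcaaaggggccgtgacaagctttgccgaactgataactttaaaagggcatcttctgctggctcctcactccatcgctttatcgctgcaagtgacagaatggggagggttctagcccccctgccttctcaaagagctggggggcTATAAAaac
Nppb: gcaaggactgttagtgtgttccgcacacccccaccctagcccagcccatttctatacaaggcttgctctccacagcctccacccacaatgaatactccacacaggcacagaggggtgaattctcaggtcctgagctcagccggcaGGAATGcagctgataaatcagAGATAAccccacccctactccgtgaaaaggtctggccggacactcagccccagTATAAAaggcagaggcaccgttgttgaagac
Acta1: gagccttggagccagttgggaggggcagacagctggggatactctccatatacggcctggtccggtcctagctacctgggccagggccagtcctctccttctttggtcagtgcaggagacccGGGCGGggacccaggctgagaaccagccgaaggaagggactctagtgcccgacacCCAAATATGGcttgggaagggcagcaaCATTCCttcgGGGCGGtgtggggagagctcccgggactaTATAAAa
Ankrd1: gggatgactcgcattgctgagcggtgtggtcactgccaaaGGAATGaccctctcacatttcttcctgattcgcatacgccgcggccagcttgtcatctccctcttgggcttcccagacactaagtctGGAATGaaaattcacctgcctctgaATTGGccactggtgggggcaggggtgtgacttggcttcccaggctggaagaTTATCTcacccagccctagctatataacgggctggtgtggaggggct
Ndufa11: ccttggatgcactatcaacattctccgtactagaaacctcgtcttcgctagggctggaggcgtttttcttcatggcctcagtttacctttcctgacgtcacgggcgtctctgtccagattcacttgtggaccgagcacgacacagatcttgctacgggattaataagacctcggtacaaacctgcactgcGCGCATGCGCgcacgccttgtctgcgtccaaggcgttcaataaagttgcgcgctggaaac

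Acta1 holds a CArG box, the element bound by serum response factor, at -73 and an MCAT element (CATTCC, bound by TEAD factors) at -46. Ankrd1 holds MCAT letters at -210 and -123 and GATA letters (AGATAA) at -47. Nppb holds the MCAT letters at -105, the GATA letters at -84 and a TATA box (TATAAA) at -31, and Nppa holds the TATA letters at -9. MCAT letters were found in 3 of the 14 matched promoters of the 15 genes highest in the knockout-labelled library (21.4%) and in 12.6% of 27025 mouse promoters. A CArG box was found in 1 of the 14 and in 1.39% of all. The NRF1 element, at -60 in Ndufa11, was found in 14 of 68 matched oxidative phosphorylation promoters (20.6%) and in 3.77% of all. The estrogen-related receptor letters (AAGGTCA) were in 6 of 68 (8.82%) and in 4.05% of all. Of 12 matched promoters of the 15 genes highest in members over mitochondria-low cells, 0 held either element. Among 12 matched promoters of the 15 lowest, each element was in 1. The CCAAT and GC boxes marked in Ankrd1 and Acta1 were in 34.2% and 32.7% of all promoters. A match is a description of letters in a window.

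The comparison of the knockout-labelled with the wild-type library asks how p53 bears on hypertrophied cardiomyocytes, and here it is made within members. Of 6026 genes counted, 6.09% were at least 2-fold higher and 15.2% at least 2-fold lower in the knockout-labelled library, around a median of -0.13. Of all these genes, 42.9% were above 0. Setting the median of abundant genes to 0 instead would lower each ratio by 0.16.

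Natriuretic peptides and fetal contractile genes were the group with the widest gap. Of 15 counted genes of this programme, 14 were higher in the knockout-labelled library, 10 by 2-fold or more, with a median of 2.57. The list was chosen with these results known, and mitochondria-low cells had a median of 2.47 over 18 genes. Nppa, the precursor of atrial natriuretic peptide, was at 222 CPM (118 UMIs) and 6018 CPM (1008 UMIs), a log2 ratio of 4.75 (4.48 to 5.05). Nppb, that of B-type natriuretic peptide, was at 314 and 1875 CPM, a ratio of 2.57 (2.30 to 2.86). The ratio of Nppb moved more than that of Nppa with the barcodes chosen: it was 1.45 within 1000 to 3000 UMIs per barcode, 3.23 within 10 to 20% and 1.91 within 20 to 50% mitochondrial share. Both were far apart between the libraries beyond counting error.

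Myh7, the slow myosin heavy chain of the fetal ventricle, was at 393 and 4280 CPM (3.44, 3.22 to 3.67). Its adult partner Myh6, a gene of the rule, was at 16237 and 12399 CPM (-0.39, -0.46 to -0.32). Acta1, skeletal actin, was at 386 and 3803 CPM (3.30, 3.07 to 3.54), next to Actc1 with 0.30. Myh6 and Myh7, and Acta1 and Actc1, are near-identical pairs, so the split of UMIs within each is uncertain. Ankrd1 was at 920 and 6394 CPM (2.80, 2.64 to 2.95). Ndrg4 had a ratio of 3.86, the nicotinamide riboside kinase Nmrk2 3.50 and the matricellular protein Ccn2 3.31 (58.3 and 585 CPM). The exception was the carboxylesterase Ces1d, at 134 and 23.9 CPM.

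**Figure D4:**
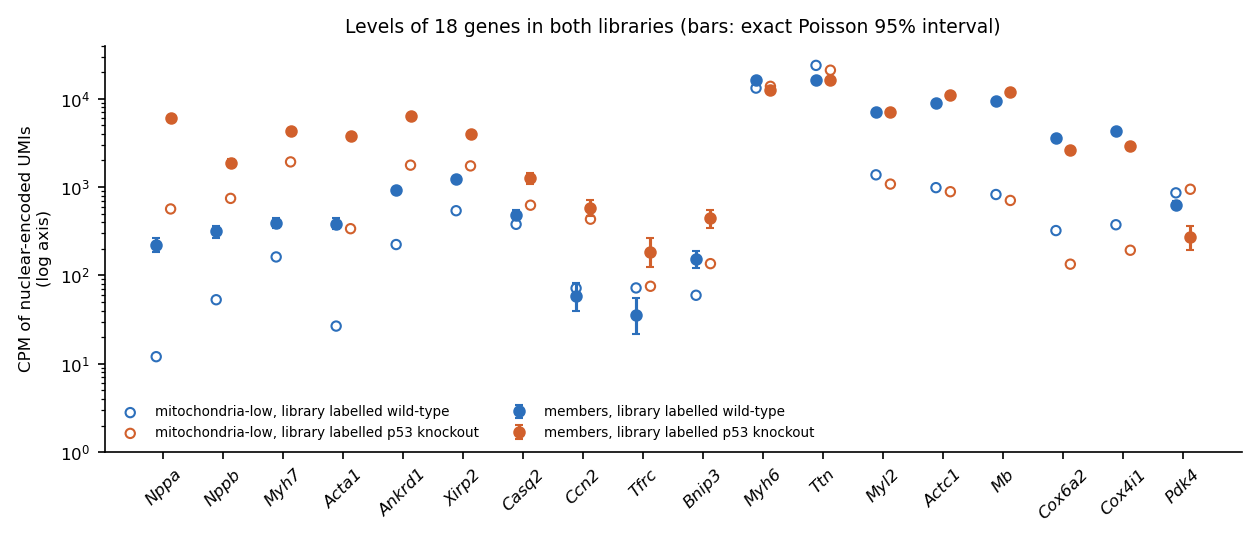
Level (CPM of nuclear-encoded UMIs, log axis) of 18 genes in members (filled) and mitochondria-low ventricular cardiomyocytes (open) of both libraries; bars are exact Poisson 95% intervals for members. Nppa in members lies at 222 and 6018 CPM, whereas Myl2 (7055 and 7068 CPM) coincides; Ttn and Myh6 are genes of the rule.

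These genes were seen in a larger share of members of the knockout-labelled library than of the other. After thinning to 500 UMIs, Nppa had a UMI in 4.69% (3.03 to 6.89) and 47.4% (37.2 to 57.8) of members, against 0.719% and 7.57% of B-cell barcodes. Without thinning the shares of members were 6.24% and 67.0%. Acta1 was in 11.7% and 67.0% after thinning, Myh7 in 16.4% and 67.0%, Ankrd1 in 28.1% and 77.3%, and Nppb in 11.1% and 37.1%. In B-cell barcodes of the knockout-labelled library these 4 genes were in 5.44 to 7.09%. The Nppa level of those B-cell barcodes, 3967 CPM, rests on 1 barcode that holds 3173 of their 3487 UMIs, which is why shares of barcodes are the clearer background here.

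**Figure D5:**
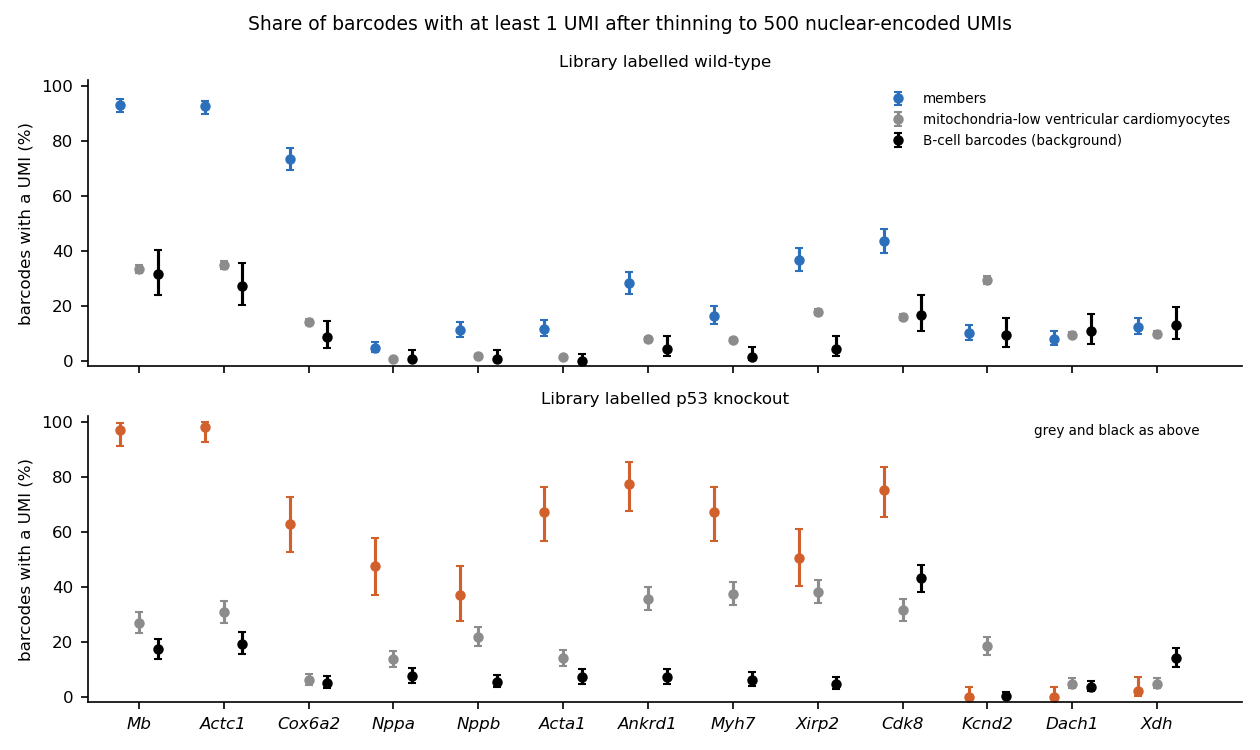
Share of barcodes with at least 1 UMI (%) after thinning to 500 nuclear-encoded UMIs in members, mitochondria-low ventricular cardiomyocytes and B-cell barcodes of each library; bars are exact binomial 95% intervals. Nppa is in 4.69% of members of the library labelled wild-type and 47.4% of those of the other, and Kcnd2 and Dach1 are in none of the 97 latter.

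Members were uneven among themselves. Of 97 knockout-labelled members, 65 held Nppa, and the 10 with the most held 64.2% of its UMIs, with up to 122 in 1 barcode. Myh7 was spread more evenly, in 86 of 97, with 34.2% of UMIs in the top 10. In the wild-type library 33 of 529 held Nppa. In the 65 knockout-labelled members with an Nppa UMI, Nppb was at 2265 CPM and in the 32 without at 860 CPM. Ankrd1 was at 7324 and 3975 CPM in those groups, Myh7 at 4844 and 2815, Myh6 at 11003 and 16030, and Xirp2 at 4836 and 1612. Acta1, at 3786 and 3846 CPM, did not follow Nppa. These groups also differed in median depth, 1972 and 1672 UMIs. In the wild-type library, members with and without Nppa had Ankrd1 at 2148 and 829 CPM and Myh7 at 952 and 352 CPM.

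Z-disc and stretch-response genes were higher by less. Of 20 counted, 19 were higher in the knockout-labelled library and 4 of them by 2-fold or more, with a median of 0.81. Besides Ankrd1 these 4 were Synpo2l with 2.68, Xirp2 with 1.67 and Pdlim1 with 1.67. Xirp2, an actin-binding protein of the intercalated disc, was at 1234 and 3940 CPM. Its ratio was 0.85 without the barcodes that take 1% or more of their UMIs from markers of other cells (an alternative chosen after seeing the data). Acta1 then had 2.88, Ankrd1 2.41, Nppb 3.0, Nppa 4.87 and Myh7 3.29. That removal left 357 and 47 members. Its markers include the erythroid ones, which summed to 8173 CPM in knockout-labelled members, against 1469 CPM for fibroblast markers. Which markers led to the removal was not tested. Tcap, the titin cap, had 0.90, the muscle LIM protein Csrp3 0.72 and the chaperone Hspb7 0.86. Bag3, a co-chaperone, had -0.20 (-0.75 to 0.30).

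Several abundant contractile and calcium genes were at like levels. Tropomyosin Tpm1 was at 9070 and 9116 CPM (0.01, -0.08 to 0.09) and Myl2 at 7055 and 7068 (0.00, -0.09 to 0.10). Atp2a2 was at 7246 and 6746 CPM and its inhibitor Pln at 5054 and 4824, with ratios of -0.10 and -0.07. Casq2, which buffers calcium in the sarcoplasmic reticulum, was at 487 and 1254 CPM (1.36, 1.09 to 1.63). Ttn (16316 and 16220 CPM), Tnnt2 (7956 and 7641) and Ryr2 (2853 and 3839) are genes of the rule, which partly fixes their levels. Of 18 calcium genes, 8 were higher and 10 lower, with a median of -0.05. Among pumps and channels, the sodium pump subunit Atp1b1 was at 228 and 537 CPM (1.24). Kcnj3, a subunit of the acetylcholine-gated potassium channel, was at 186 and 71.6 CPM.

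Respiratory genes were close between the libraries in members. Of 82 nuclear oxidative phosphorylation genes, 23 were higher and 59 lower, with a median of -0.19 next to -0.13 for all genes. Only Ndufa6 passed 2-fold, at 777 and 382 CPM (-1.01), and within members of 10 to 20% mitochondrial share the median was 0.11. It was 0.08 with a cardiomyocyte share of at least 1% in the rule (an alternative chosen after seeing the data), where Ndufa6 had -0.32. Cox4i1 had -0.56 (-0.71 to -0.42), Uqcrq -0.80 and the heart isoform Cox7a1 -0.71. In mitochondria-low cells, where 27.5% of genes were above 0, all 82 were lower, with a median of -0.76 next to -0.37 for all genes. The difference between the 2 medians was not tested. Of 16 citric acid cycle genes, 11 were higher and 5 lower, with a median of 0.16, and Suclg1 had -0.74.

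Fuel genes had a few clear members on each side. Of 29 fatty acid genes, 22 were lower, with a median of -0.28 next to -0.13 for all genes. Pdk4, the kinase that closes pyruvate dehydrogenase, was at 627 and 269 CPM (-1.21, -1.70 to -0.77), and -0.60 where the 4 cardiomyocyte genes hold at least 5% (140 and 19 members). Lipoprotein lipase Lpl, at 5092 and 7295 CPM (0.52), and the fatty acid carrier Fabp3, at 5451 and 6943 (0.35), were higher. Of 24 glycolytic genes, 18 were higher, with a median of 0.30 that turned to -0.20 at that share of 5%. The fatty acid median turned to 0.07 at a share of 1%. Aldoa was at 1359 and 1845 CPM (0.44), Pgk1 at 203 and 424 (1.06) and Ldha at 453 and 615 (0.44). Pfkm, muscle phosphofructokinase, was at 514 and 293 CPM (-0.80). Pgk1 lies on the X chromosome, in which the libraries differ by Xist, and had 0.10 within 1000 to 3000 UMIs per barcode.

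Target genes of p53 showed no common direction. Of 18 counted, 9 were higher and 9 lower in the knockout-labelled library, with a median of 0.04. Btg2, an antiproliferative gene, was at 30.1 and 113 CPM (1.91), Perp at 86.6 and 293 (1.76) and Ephx1 at 48.9 and 17.9 (-1.25, 26 and 3 UMIs). Ccng1, the target with the most UMIs, was at 467 and 537 CPM (0.21, -0.16 to 0.56). Mdm2 had 46 and 9 UMIs and a ratio of -0.63. Cdkn1a, the p21 inhibitor of the cell cycle, had 4 and 1 UMIs in members, too few for a ratio. Of 9 counted cell death genes, 3 were higher and 6 lower. Bnip3, a mitochondrial protein of mitophagy and hypoxia, was at 152 and 442 CPM (1.54, 1.06 to 2.01), and Ppif, a regulator of the permeability transition, at 158 and 71.6 (-1.09). At a cardiomyocyte share of 5% Ppif turned to 0.67 and the cell death median went from -0.21 to 0.92, and Ephx1 had -0.56.

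Matrix genes and profibrotic signals had 10 of 15 genes higher in the knockout-labelled library, 6 of them by 2-fold or more, where 6.09% of all genes were, and none lower by 2-fold. Their median of 0.80 turned to -0.24 at a cardiomyocyte share of 5%. Among them were Ccn2, the basement membrane collagen Col4a1 with 1.28 (0.40 at 5%) and Timp3, an inhibitor of matrix proteases, with 0.99, whereas the laminin chain Lama2 had -0.79. The summed fibroblast markers went the other way, from 2553 to 1469 CPM. In mitochondria-low cells the matrix list had a median of 0.68, with 16 of 21 genes higher. There 9 were higher by 2-fold or more, as were 3.43% of all genes.

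Heat shock and protein folding had 9 of 15 genes higher, with a median of 0.18, and 2 higher and 3 lower by 2-fold or more. The chaperone Hsp90aa1 was at 162 and 370 CPM (1.20), Hspb8 at 228 and 501 (1.14) and Hspb6 at 504 and 937 (0.90), and the endoplasmic reticulum chaperone Calr was at 218 and 71.6 (-1.55). Hsp90aa1 had 0.48 without barcodes rich in markers of other cells, and Calr -0.65 at a cardiomyocyte share of 1%. Tfrc, the transferrin receptor, was at 35.8 and 185 CPM (2.36, 1.5 to 3.28), while the iron store Fth1 was at 1880 and 1367 (-0.46). The secreted peroxidase Gpx3 was at 88.4 and 257 CPM (1.54) and the AP-1 subunit Jund at 115 and 316 (1.46). Vegfa, an angiogenic factor made by cardiomyocytes, was at 363 and 645 CPM (0.83).

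Beyond the lists, Cdk8, a kinase of the Mediator complex, was at 1244 and 4137 CPM (1.73, 1.58 to 1.89). It was also in 16.5% and 43.0% of thinned B-cell barcodes, against 43.4% and 75.3% of members. Prkar1a, a regulatory subunit of protein kinase A, was at 226 and 531 CPM (1.24) and glutamine synthetase Glul at 324 and 687 (1.09, and 0.49 within 1000 to 3000 UMIs). Camk1d (1.06) and Kif5b (1.04) stood at 1.56 and 1.31 times the B-cell level in members of the wild-type library and at 1.44 and 2.06 times in the other. All 15 genes named as highest were also higher in mitochondria-low cells, 8 of them by 2-fold or more, as were 3.43% of all genes counted there.

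Genes lower in the knockout-labelled library rested on few UMIs there. Dach1, a transcriptional regulator, was at 226 and 23.9 CPM (120 and 4 UMIs; -3.08, -5.14 to -1.85), Kcnd2, a channel of the transient outward potassium current, at 265 and 29.8 (141 and 5; -3.02, -4.80 to -1.90) and xanthine dehydrogenase Xdh at 309 and 41.8 (164 and 7; -2.79, -4.22 to -1.81). The scaffold Magi2 was at 660 and 185 CPM and Mhrt at 335 and 95.5. In thinned members, Kcnd2 was in 9.96% and in 0 of 97, which allows a share of up to 3.09% at that depth. Without thinning it was in 16.3% and 5.15% of members. In B-cell barcodes it was in 9.35% and 0.473%, close to members in both libraries. Dach1 was in 8.01% and 0% of thinned members and in 10.8% and 3.55% of B-cell barcodes. Xdh was in 12.3% and 2.06% of thinned members and in 12.9% and 14.2% of B-cell barcodes. Both were thus no more frequent in members than in B-cell barcodes, and in the knockout-labelled library Xdh was at 0.11 times the B-cell level. Of the 15 genes named as lowest, 6 were at or under the B-cell level in wild-type-library members and 4 were over 2 times it, with a median of 1.06 times. Mhrt, Smtn and Tbc1d4 were among those 4. In knockout-labelled members 11 were at or under it and 2 over 2 times it, with a median of 0.34 times. The genes were chosen for a low ratio, with a filter on level in the wild-type library only. These counts are therefore partly fixed by the choice. In mitochondria-low cells 14 of the 15 were lower too, 6 by 2-fold or more, as were 20.8% of all genes counted there, and Rapgef1 was the exception.

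Barcodes with a UMI of an atrial gene were left out by the rule. They numbered 27 and 38 among cardiomyocyte barcodes, and 5 and 9 of them had 10 to 50% mitochondrial UMIs.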

How the data were processed

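UMI counts per gene and barcode were deposited for 2 libraries of hypertrophied left ventricle 6 weeks after TAC. Cell Ranger, Seurat and mm10 are named per the submitters' processing notes; for versions, filters and strand use, nothing is given in the sources used here. A 10x 3' kit and total RNA extraction are named per the labels' protocols, whereas barcodes are written as 3 blocks of 9 bases; whether cells or nuclei were loaded is not stated. The deposited counts hold barcodes of 500 UMIs or more.

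The membership rule was applied to both count matrices with Python 3.11.15, numpy 2.4.6, scipy 1.17.1 and pandas 2.3.3. UMIs were summed per library and scaled to CPM of nuclear-encoded UMIs, with exact Poisson 95% intervals. Log2 ratios add 0.5 UMI to each sum and have conditional binomial intervals. Positions are from GENCODE vM21, which matched 32445 of 32589 gene identifiers, and promoters from RefSeq. The ratios were tried on simulated UMIs drawn with counting error alone, which cannot show how they behave with spread between barcodes, animals or libraries. With 1 library per group no test was possible, and a difference of 2-fold is a size, not a test. UMIs count molecules, and intervals and floors cover counting error only.

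The members, gene lists and settings were chosen with earlier results of these data known. Named genes had at least 100 UMIs on 1 side and a level of at least 0.5 times that over all barcodes. The 15 highest and lowest were taken in each comparison, for members against mitochondria-low cells with the same sign in both libraries. Up to 4 of the most abundant and the 2 extreme genes of each list, Trp53 and the markers were added. Mitochondrial, ribosomal, haemoglobin and Y-linked genes, Xist, Tsix, unnamed models and the genes of the rule were left out of the ranking. Other X-linked genes, such as Pgk1, were kept. Other genes of the lists were named after their values were seen, and the values of a few genes are not reported here. Scrublet in scanpy 1.11.5 marked 0 barcodes by its automatic threshold, so no doublets were removed; of the 8% with the highest scores, 5 and 4 were members. Alternatives covered the bounds of the rule, depth, doublets, scaling, the count filter and markers of other cells.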

Additional observations from a re-analysis of the deposited data

Results flagged for a closer look

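For the 16 genes given here the ratio had opposite signs in 2 settings that share the same contrast, with each interval clear of 0. None of these differences was tested, since each group has 1 library, and both settings share no barcodes. Values are log2 ratios of the knockout-labelled over the wild-type library, in members and then in mitochondria-low cells, unless stated otherwise. The median over all genes was -0.13 in members and -0.37 in mitochondria-low cells. Relative to these medians 12 of the 15 genes compared between the libraries kept opposite signs, and Mb, Actc1 and Mef2a were above 0 in both.

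Genes higher in members and lower in mitochondria-low cells were Mb (0.33 and -0.22), Actc1 (0.30 and -0.15), the chaperones Cryab (0.26 and -0.47) and Hspa8 (0.40 and -0.68), and the peroxiredoxin Prdx5 (0.53 and -0.69). Atp5g3 of ATP synthase had 0.22 and -0.41, malate dehydrogenase Mdh2 0.34 and -0.40, and the transcription factor Mef2a 0.55 and -0.14.

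The opposite order was seen for Pdk4 (-1.21 and 0.14), Pfkm (-0.80 and 0.31), triadin Trdn (-0.32 and 0.0994) and the nuclear receptor Esrrg (-0.90 and 0.31). Malat1 had -0.50 and 0.33 and the laminin gene Lama2 -0.79 and 0.68. Rapgef1 had -1.59 and 0.33.

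Members over mitochondria-low cells gave opposite signs in the 2 libraries for Tfrc, with -0.98 in the wild-type library and 1.31 in the knockout-labelled one, and for Rapgef1, with 0.52 and -1.40.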

How the results depend on the processing

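No paired analysis was possible because each group has 1 library. Of 4363 gene ratios of 2-fold or more under the alternatives, 4355 kept their sign, and all 427 list medians of that size did. Smaller ones turned more often: 281 of 3160 gene ratios and 83 of 782 list medians, of which 222 and 70 lay between the libraries. The alternatives with no count filter and with at least 100 UMIs on 1 side changed only which genes were counted. Their 579 gene ratios and 93 list medians each could not turn, yet are part of these totals. The genes also include those named for the largest ratios, so the totals do not measure how stable genes are in general. Within 10 to 20% mitochondrial share, 19 of 31 list medians and 156 of 193 gene ratios between the libraries kept their sign. Between the libraries 367 genes were at least 2-fold higher and 917 lower. These numbers were 189 and 250 where the 4 cardiomyocyte genes hold at least 5%, 2403 and 2965 with no count filter, and 22 and 66 with at least 100 UMIs on 1 side. The lower genes were 608 within 10 to 20% and 572 within 20 to 50% mitochondrial share. Members against mitochondria-low cells gave 1954 higher and 2461 lower genes in the wild-type library, with 7536 higher under no filter and 927 and 1551 at 100 UMIs. The other library gave 2081 and 2208, with 6987 higher under no filter and 337 and 1080 at 100 UMIs. Genes counted between the libraries numbered 6026, and 1520 at 5%, 15950 with no filter and 832 at 100 UMIs. They were 3476 within 10 to 20% and 3547 within 20 to 50% mitochondrial share. For members against mitochondria-low cells they were 13063, 22654 with no filter and 8056 at 100 UMIs in the wild-type library. The other library had 8644, 18159 and 2811. How far the changes follow these numbers was not tested. Among ratios of 2-fold or more, 8 turned. At 5% these were, between the libraries, Lgals4 (0.20), Aldh9a1 (0.67) and Ppif (0.67), and, between members and mitochondria-low cells, Egr1 (-2.47, wild-type library), Myo5c (0.0470) and mt-Nd6 (-0.51, other library). Ccnd1 turned to -0.62 in the wild-type library without barcodes of 3 or more UMIs of other cells' markers, and Meg3 to 0.27 in the other at 1%, chosen after seeing the data. The cause of these turns was not tested. Removing barcodes of 3 or more such UMIs was not run for the knockout-labelled library, where it left 1 member.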
